A study of Rattus norvegicus with 2 samples.

Results

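Aqp7, G0s2, Gpam, Lipe, Fabp4 and Lep, 6 genes of triglyceride storage and glycerol handling, were read in the hearts of Dahl salt-sensitive rats that ate much or little salt. The genes were chosen by the difference between these same high-salt and low-salt intensities, seen earlier, and by their place in fat storage. Every probe set whose annotation symbol was one of the 6 names was taken, which gave 13 of 8740 probe sets and 6 of 4736 named genes. Because the contrast chose the genes, their differences below are a description and carry no test. One array held heart RNA of a male rat or rats aged 17 weeks on the high-salt diet, labelled as chronic heart failure. The other held heart RNA of males of the same strain and age on the low-salt diet, for which no disease label is given. This inbred strain becomes hypertensive on salt. The labels used here do not give the salt content or duration of the diets, the chamber sampled, or whether an RNA came from 1 animal or a pool. With 1 array a diet, every comparison is between these 2 arrays, and the spread between animals is unknown.

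A cell stores fat by joining activated fatty acids to a glycerol backbone. The outer-membrane mitochondrial enzyme encoded by Gpam makes the first join, and diacylglycerol acyltransferases make the last. Stored triglyceride is then cut by a series of lipases, of which Lipe encodes hormone-sensitive lipase. The small protein encoded by G0s2 binds and inhibits the first lipase of that series, adipose triglyceride lipase. The glycerol set free crosses the membrane through aquaglyceroporins such as the product of Aqp7, which adipocytes and heart muscle cells use. Fabp4 encodes the fatty acid carrier of adipocytes, which capillary endothelium and macrophages also make, and Lep encodes leptin, the hormone by which fat tissue signals its stores. The heart burns mainly fatty acids and holds a small, rapidly turned over triglyceride store.

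Intensities are in arbitrary units on a linear scale and include values below 0. Negative readings gave the noise floor, 126.4, which 95% of them do not exceed in size, and a value under it has no reliable order. Ratios were taken with both values raised to that floor, so a ratio with 1 value under it is a bound, and no ratio is given where both were under it. Such a bound, given below as "at least", holds for that floor only and takes the brighter value as exact. A higher floor gives a smaller ratio. A gene that reached the floor on 1 array alone could only read higher on that array. The floor was reached by 20.0% of all probe sets with high salt and by 20.3% with low salt. Of the 13 probe sets of the 6 genes, 5 reached it on an array: those of Aqp7, G0s2 and Fabp4, 1 of 5 for Gpam and 1 of 3 for Lep. Neither Lipe probe set did. As a partial error, log2 ratios of probe sets of the same gene varied with an SD of 0.22, a factor of 1.17 (231 genes, both values above the floor). That SD holds no variation between animals.

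**Figure D1:**
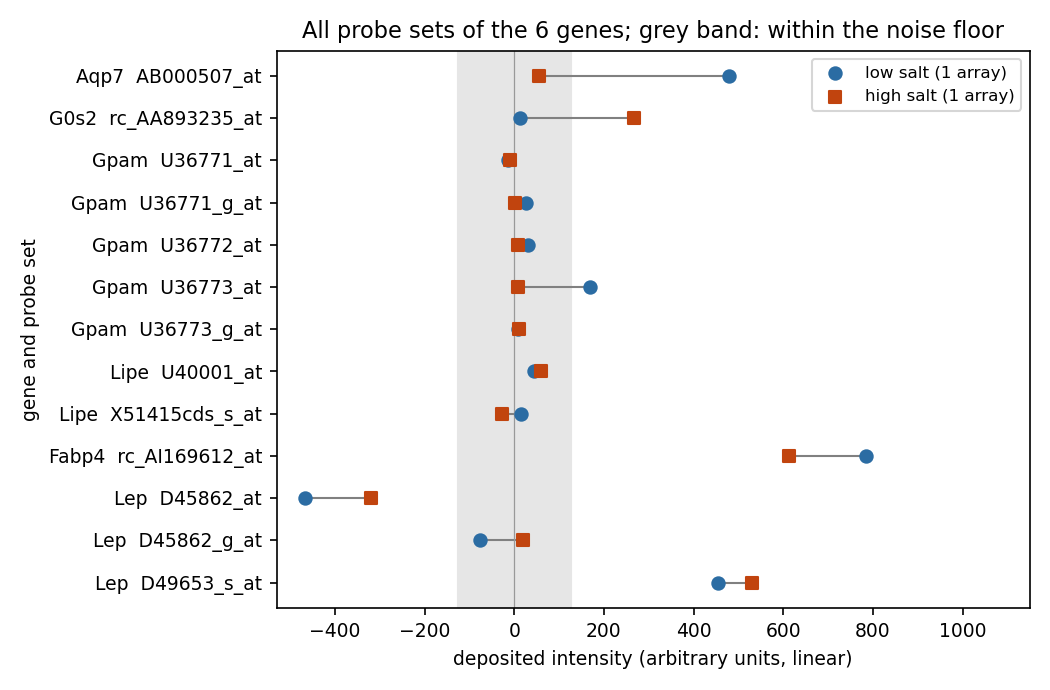
Deposited intensity (linear axis, arbitrary units) of all 13 probe sets of the 6 genes, with a blue circle for the low-salt array and an orange square for the high-salt array, 1 array each. The grey band spans values within 126.4 of 0; Aqp7, G0s2 and 1 Gpam probe set each have 1 point inside the band and 1 outside, both Fabp4 points lie to its right, and of the Lep probe sets 1 lies to its left, 1 inside and 1 to its right.

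Aqp7 read lower in the high-salt heart and G0s2 read higher, while Fabp4 and Lep differed by less than 2-fold and Gpam gave only a bound, under 2-fold. The glycerol channel gene Aqp7, read by AB000507_at, had an intensity of 55.6 with high salt and 478.1 with low salt. It was well above the floor on the low-salt array alone, so against this floor it read at least 3.78-fold lower in the high-salt heart (log2 ratio -1.92). The lipolysis inhibitor gene G0s2, read by rc_AA893235_at, had 268.3 with high salt and 13.8 with low salt. Here the high-salt array was the one above the floor, and the bound was at least 2.12-fold higher (log2 ratio 1.09). Both genes have a single probe set, so no second reading of either was at hand. Past 2-fold against the noise floor, 1 member probe set was higher and 1 lower. Over all 1955 probe sets that reached the floor on an array, 69 (3.53%) were at least 2-fold higher and 33 (1.69%) at least 2-fold lower.

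**Figure D2:**
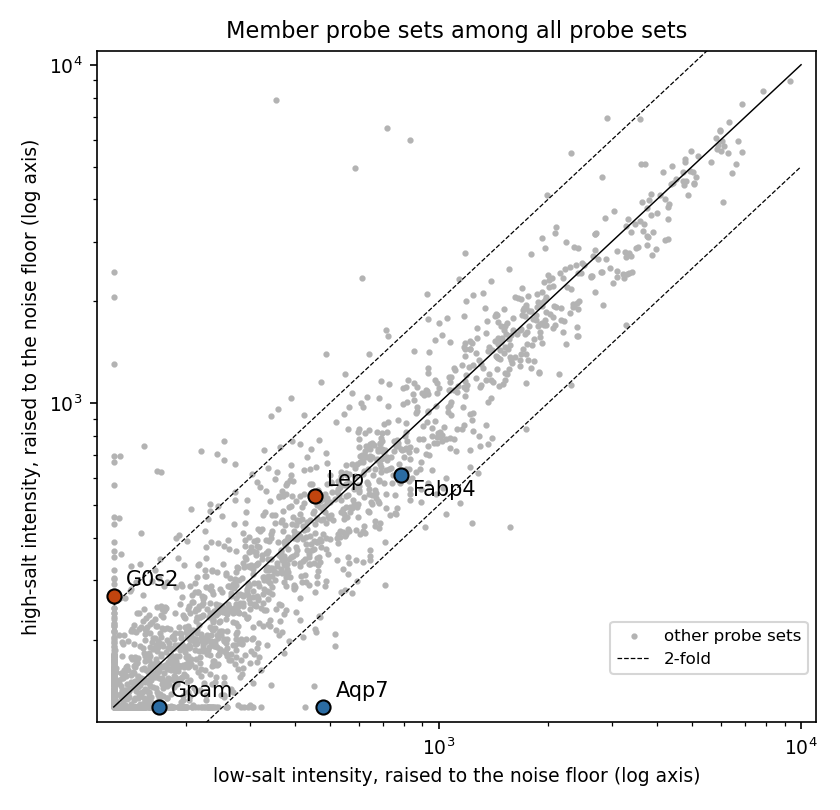
High-salt intensity (vertical) against low-salt intensity (horizontal) for the 1955 probe sets that reached the noise floor on 1 or both arrays, both log axes, with values raised to 126.4. The solid line marks equal values, the dashed lines mark 2-fold, and named points are blue where lower and orange where higher with high salt; Aqp7 and Gpam lie on the lower edge and G0s2 on the left edge, where 1 value is under the floor, while Fabp4 and Lep lie between the dashed lines.

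The ratios of Aqp7 and G0s2 depended on where the floor was put. With the floor at 50, below the high-salt Aqp7 reading, the log2 ratio of Aqp7 was -3.10, and it was still -1.09 with the floor at 225. For G0s2 the log2 ratio ran from 3.16 with the floor at 30 to 0.84 at 150, so its 2-fold call was lost soon above the floor used. The Gpam probe set U36773_at ran from -2.49 with the floor at 30 to -0.16 at 150. Fabp4 and Lep did not move, since both their readings were above every floor tried.

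**Figure D3:**
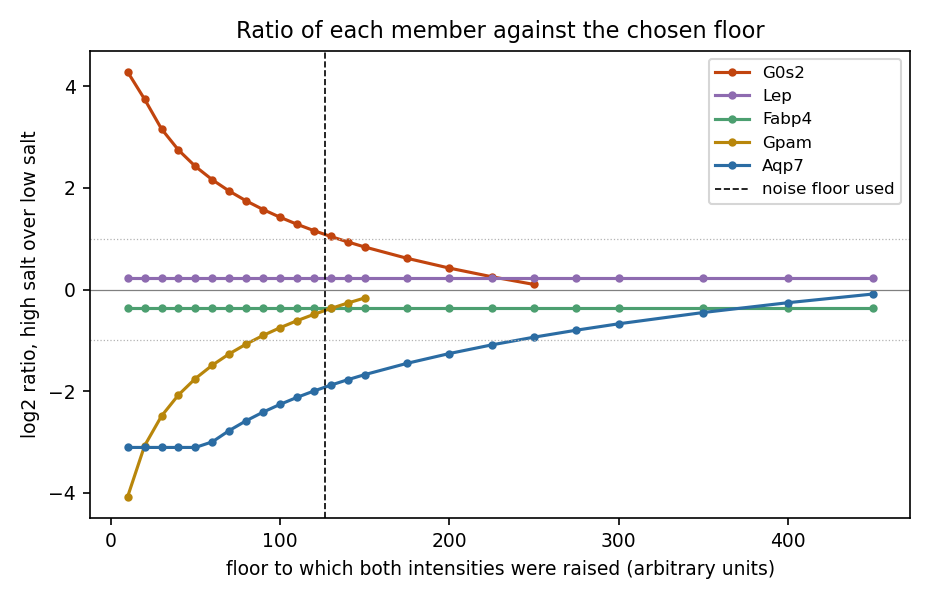
Log2 ratio, high salt against low salt (vertical), for the 5 member probe sets that reached the noise floor, against the floor to which both intensities were raised (horizontal, arbitrary units), 1 line a gene; lines end where neither array reaches the floor. The dashed line is the noise floor of 126.4 and the dotted lines mark 2-fold; Aqp7 stays below the lower dotted line up to a floor of 225, G0s2 passes under the upper one between 130 and 140, and Fabp4 and Lep are flat.

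Gpam, the gene of the first acyltransferase, was covered by 5 probe sets that did not share a direction. The probe set U36773_at read 9.5 with high salt and 168.1 with low salt, so against the floor used it was lower by at least 1.33-fold. Its partner U36773_g_at, named for the same sequence record, read 10.4 and 8.8. The remaining 3 were also under the floor on both arrays: U36771_at read -10.1 and -13.1, U36771_g_at read 1.3 and 25.6, and U36772_at read 7.5 and 31.4. High-salt values were thus lower in 3 of 5 probe sets and higher in 2, and a single low-salt reading set the Gpam difference apart from 0. Such a split within a pair was common on these arrays. Of 393 pairs of an _at and a _g_at probe set named for 1 record with at least 1 above the noise floor on an array, both were above it in 184 (46.8%). Where all 4 values of a pair were above it, 119 of 142 pairs shared a direction.

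Lipe, which encodes hormone-sensitive lipase, gave no direction. U40001_at read 59.5 with high salt and 44.5 with low salt, and X51415cds_s_at read -26.4 and 16.0. All 4 values lay under the noise floor and the probe sets differed in sign.

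Fabp4, the adipocyte fatty acid carrier, was the member read well above the floor on both arrays with a single probe set. Its intensity was 613.4 with high salt and 785.0 with low salt, 1.28-fold lower (log2 ratio -0.36). This difference was larger than the SD of 0.22 between probe sets of 1 gene, but many other probe sets were lower still. In log2 ratio it held rank 363 from the lowest among 1955 probe sets, whose lower quartile was -0.28. Of all 1955 probe sets that reached the floor, 54.3% read lower in the high-salt heart, with a median log2 ratio of -0.04.

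The leptin gene Lep was read by 3 probe sets that disagreed on whether it was measured at all. D49653_s_at read 531.1 with high salt and 453.6 with low salt, 1.17-fold higher (log2 ratio 0.23), about the SD between probe sets of 1 gene. D45862_at read -319.7 and -467.6, and D45862_g_at read 20.3 and -76.7. Only 10 of 8740 probe sets, D45862_at included, were at or below -319.7 on both arrays. The high-salt value was the greater in all 3 Lep probe sets, but in the pair named for D45862 no value reached the noise floor, so a leptin level in these hearts rests on D49653_s_at alone.

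Other genes of the same steps were read from lists of triglyceride synthesis, triglyceride breakdown, lipid droplet proteins and glycerol handling. Together the lists named 67 genes, of which 32 had a probe set with that symbol alone and 12 reached the noise floor on an array. G0s2 was at least 2-fold higher, Aqp7 at least 2-fold lower, where 3.55% of all genes at the floor were higher by that rule and 1.9% lower. The other 10 were not past 2-fold, but 4 of them (Gpam, Dgat1, Ces1d and Plin2) had 1 value under the floor, so their ratios are bounds and a larger difference was not measurable. Over all 12 the log2 ratios had a median of -0.38, and -0.36 over the 9 that are not among the 6 genes, against -0.04 over all 1211 genes that reached the floor. Of those 9, none passed 2-fold and 8 read lower in the high-salt heart, against 54.5% of all genes at the floor. In 3 of the 9 the floor was reached on 1 array alone, which fixed the direction: Dgat1 and Ces1d lower, Plin2 higher. Ces1d (log2 ratio -0.02) and Lpl (-0.13) were among the 8, with differences inside the SD of 0.22 between probe sets of 1 gene.

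Of the 21 genes in the synthesis list 7 had a probe set, and the 3 that reached the floor all read lower. Gpam and Dgat1 reached it on the low-salt array alone, so they could not have read higher. Acsl1 alone had both values at the floor. Acsl1, which encodes the main long-chain acyl-CoA synthetase of the heart, read 350.3 with high salt and 559.2 with low salt (log2 ratio -0.67). Of its other probe sets, those that read 276.7 against 537.0 and 86.0 against 242.8 were also lower. The last read 80.8 against 119.7, under the floor on both arrays, and gave no reliable direction. Dgat1, the gene of an enzyme of the last synthetic step, read 121.0 against 225.5, at least 1.78-fold lower. The synthetases Acsl3, Acsl4, Acsl5 and Acsl6 stayed under the floor on both arrays.

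Of the breakdown list, 5 of 14 genes on the array reached the floor, 4 of them lower and G0s2 higher, with no member but G0s2 past 2-fold. Lpl, the gene of lipoprotein lipase, which frees fatty acids from circulating triglyceride, read 2821.9 against 3098.2 in its brightest probe set, and its 3 log2 ratios ran from -0.21 to 0.08. Lipa, which encodes the lysosomal acid lipase, read 335.7 against 451.1. Its other 2 probe sets read 64.7 against 57.3 and 122.7 against 59.6, under the floor on both arrays. Prkaca, a catalytic subunit gene of the kinase that activates hormone-sensitive lipase, read 411.5 against 526.5. Ces1d, a carboxylesterase gene, read 23.0 against 128.6, barely at the floor. Mgll, the gene of the lipase that takes the last fatty acid off, read 64.5 and 72.5, both under the floor. Pnpla2, which encodes the lipase that the G0s2 protein inhibits, and its activator gene Abhd5 had no probe set under their symbols and were not analysed here.

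Lipid droplet genes gave a mixed picture. Cav1, which encodes the membrane protein caveolin found at the surface of fat cells and endothelium, read 135.5 with high salt and 254.4 with low salt, 1.88-fold lower. Cidea, a gene of droplet fusion, read 418.5 against 531.6. Plin2, the droplet coat gene of most non-adipose cells, read 138.5 against 112.1, close to the floor (log2 ratio 0.13, a bound), and its second probe set read 8.5 and 7.6. Plin1, the coat gene of adipocyte droplets, read -0.7 and -23.3.

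Of the 7 glycerol handling genes on the array, Aqp7 alone reached the noise floor. The glycerol kinase gene Gk read -19.8 with high salt and 14.7 with low salt, and Gpd1, which encodes the cytosolic glycerol-3-phosphate dehydrogenase, -106.6 and -311.3. The other aquaglyceroporin genes, Aqp3 (28.0 and 35.7) and Aqp9 (43.2 and 47.5), were under the floor on both arrays. Over the aquaporin family, 3 of 10 genes reached the floor and 1, Aqp7, passed 2-fold. Aqp1, the water channel gene of capillary endothelium, read 580.2 against 933.3, 1.61-fold lower. Mip, the lens aquaporin gene, read 239.9 against 186.3 in X53052cds_at, but -7.8 and -7.9 in its partner X53052cds_g_at.

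All 4 genes of the fatty acid binding protein family that reached the floor, of 12 on the array, read lower in the high-salt heart, and none passed 2-fold. The heart muscle form Fabp3 had a log2 ratio of -0.63 (3932.1 against 6103.4). Fabp4 followed with -0.36. Fabp5, a form of epidermis, endothelium and macrophages, had -0.27 (261.6 against 315.5), and the ileal form Fabp6 -0.21 (714.6 against 825.3). A second Fabp6 probe set read -7.0 and 3.7. The Fabp4 value did not stand apart from Fabp5 or Fabp6, since its log2 ratio differed from theirs by less than the SD between probe sets of 1 gene. That SD is for 1 ratio, and a difference between 2 ratios varies more.

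**Figure D4:**
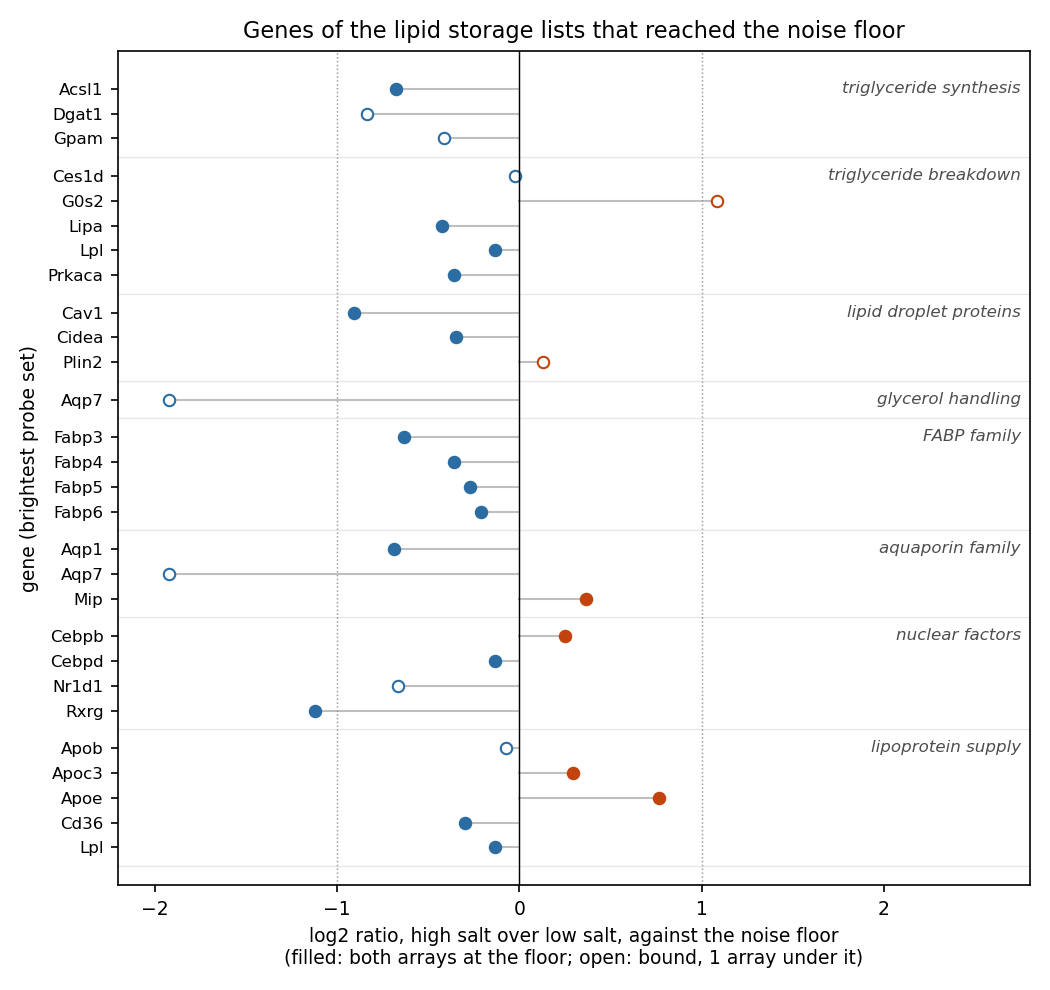
Log2 ratio, high salt against low salt with both raised to the noise floor (horizontal), for each gene of 8 lists that reached the floor, in its brightest probe set, 1 array a diet. Filled points have both arrays at the floor, open points are bounds, and dotted lines mark 2-fold; only Aqp7 and Rxrg lie beyond the lower line and only G0s2 beyond the upper one, while Acsl1, Dgat1, Cav1, Aqp1 and Fabp3 lie between -0.91 and -0.63.

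The adipocyte content of the 2 hearts was read from marker genes, since fat around the heart can enter a tissue sample. Among 8 markers made by few cells other than adipocytes, 4 had a probe set: Lep, Plin1, Cfd and Adrb3. Cfd, the gene of adipsin, read 2.2 with high salt and 6.8 with low salt, and Adrb3, a receptor gene of fat cells, read 64.4 and 68.5. Together with Plin1 at -0.7 and -23.3, these 3 were under the noise floor on both arrays, and Lep was above it in D49653_s_at alone. The marker genes Adipoq, Retn, Cidec and Thrsp had no probe set under their symbols and were not analysed here. Summed over the 4 genes, with values below 0 counted as 0, the level was 597.7 with high salt and 528.9 with low salt, most of it from D49653_s_at.

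In the wider adipocyte list, 21 of 25 genes had a probe set and 6 reached the floor: Aqp7, Car3, Fabp4, Lep, Lpl and Slc2a4. Aqp7 was the one past 2-fold, 4 of the 6 read lower, and the median log2 ratio was -0.25. Aqp7, Fabp4 and Lep are themselves among the genes chosen on this contrast. With those chosen genes left out, the list had none past 2-fold and a median of -0.13. Summed over the brightest probe sets, with values below 0 counted as 0, the list read 4886.1 with high salt and 5819.7 with low salt. Most of it came from Lpl (2821.9 and 3098.2). Lpl, Fabp4 and Slc2a4 are not among the markers made by few cells other than adipocytes, so the sum does not measure fat cells alone. The sum includes Aqp7 itself, at 55.6 with high salt and 478.1 with low salt. Slc2a4, the gene of the insulin-responsive glucose transporter of muscle and fat, read 288.3 against 483.0, but its second probe set read 148.1 against 93.7. Car3, a carbonic anhydrase gene of fat and slow muscle, read 199.7 against 177.2. The adipocyte transcription factor genes Pparg (21.3 and 11.4) and Cebpa (-1.4 and 7.6) and the synthase gene Fasn (28.5 and 28.2) were under the floor on both arrays. So were Lipe, Pck1, Gpd1, Agt, Npr3, Rbp4, Itih4, Nnat and Sncg. On the low-salt array, where Aqp7 was read, most genes of the wider list were thus under the floor, Plin1, Cfd and Adrb3 among them. Besides Aqp7, those above it were Car3, Fabp4, Lpl, Slc2a4 and Lep, the last in 1 of 3 probe sets. Of these, Lep alone is on the list of markers made by few cells other than adipocytes. The part of adipocyte content in the Aqp7 reading was not tested. In bulk tissue, fewer cells of a type and less RNA per cell cannot be told apart. Brown fat markers gave no separate signal: Ucp1 read 25.6 and 26.5, Dio2 -9.9 and -6.3, and of the 2 that reached the floor, Cidea read 418.5 against 531.6 and Cox8b, a respiratory chain gene that heart muscle also uses, 3036.7 against 4198.2.

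**Figure D5:**
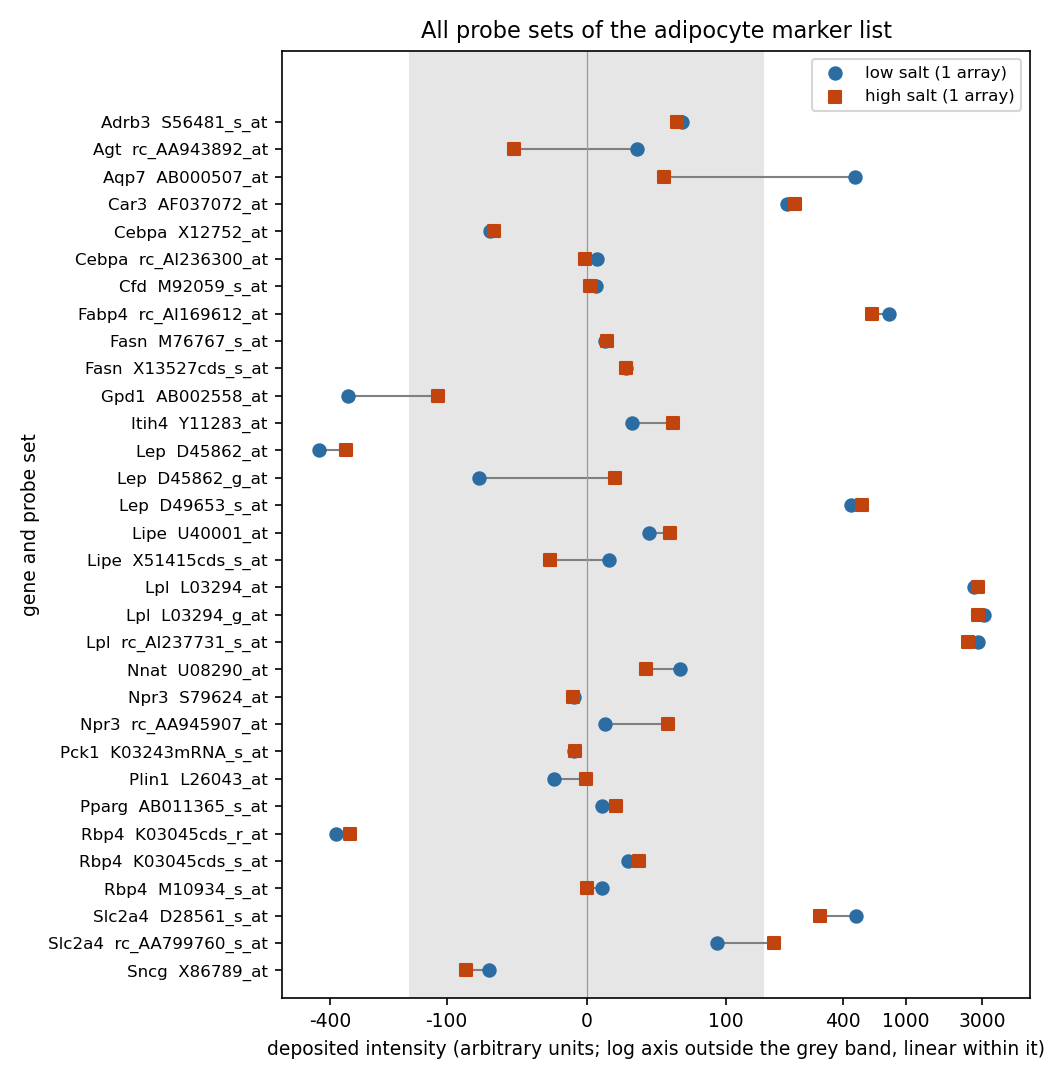
Deposited intensity of every probe set of the 21 adipocyte list genes on the array, with blue circles for the low-salt and orange squares for the high-salt array, 1 array each; the axis is linear inside the grey band, within 126.4 of 0, and logarithmic outside it. Plin1, Cfd, Adrb3, Pparg and Cebpa lie inside the band on both arrays, while Fabp4, Lpl, Car3 and 1 Lep probe set lie to its right on both and Aqp7 only on the low-salt array.

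Markers of other cells were read beside these values. Heart muscle markers were at the floor on both arrays in 9 of 10 genes, none past 2-fold, with a median log2 ratio of -0.10. Capillary endothelial markers, a list that shares Fabp4, Aqp1, Fabp5 and Cav1 with those above, had 6 of 12 at the floor. All 6 read lower, against 54.5% of all genes at the floor, and none passed 2-fold, with a median of -0.33. Flt1 reached the floor on the low-salt array alone, which fixed its direction. The summed level of the list was 2365.9 with high salt and 3098.4 with low salt. Without the shared genes, Cd36 (336.6 against 413.3) and Flt1 (121.3 against 127.9, log2 ratio -0.02) were the members left at the floor. Pecam1 (117.5 against 107.4), Nos3 (98.9 against 101.0 in its brightest probe set), Kdr, Vwf, Edn1 and Icam2 were under the floor on both arrays. They gave no direction. Macrophage and leukocyte markers went both ways (6 at the floor, 1 higher and 1 lower past 2-fold), and the 4 red cell genes, each in its brightest probe set, all passed 2-fold upwards. Of all genes at the floor, 3.55% were that much higher and 1.9% that much lower. Other red cell probe sets did not pass 2-fold. A second Slc4a1 probe set at the floor read 168.3 against 174.8. Globin probe sets with several symbols read 6905.7 against 3600.9 and 3526.6 against 2879.3. Fibroblast markers had 10 of 12 genes at the floor, 6 higher and 4 lower, with a median of 0.46. Of these S100a4 passed 2-fold, at least 3.65-fold higher (461.8 against 99.8), and the summed level of the list was 5503.2 with high salt and 4160.3 with low salt. Skeletal muscle markers (3 of 12 at the floor) and hepatocyte markers (2 of 9) had none past 2-fold. Of 9 clock genes on the array 3 reached the floor, and 2 of these passed 2-fold, where 1.9% of all genes at the floor were that much lower. All 3 reached it on the low-salt array alone, so they could not have read higher. Dbp was at least 2.25-fold lower and Tef at least 2.05-fold lower, while Nr1d1 read 125.0 against 200.3, at least 1.58-fold lower. The part of any of these in the Aqp7, G0s2 and Gpam readings was not tested. The ratio of the 3' to the 5' control probe set, a measure of RNA quality, was 1.30 with high salt and 1.22 with low salt for Gapdh, and 1.16 and 1.10 for beta-actin. For hexokinase it ran the other way, 2.12 with high salt and 2.35 with low salt, but all 4 of its readings were under the noise floor.

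Genes of like brightness were compared with the members by their log2 ratio over the 2 arrays. The ratios of Aqp7, G0s2 and Gpam are bounds set by the noise floor, so the nearness was taken at that floor alone and has no meaning beyond it. Among 278 genes whose brighter value lay within 1.5-fold of that of Aqp7, the nearest were Zmym3 (74.5 against 322.6, log2 ratio -1.35), Tuba4a (289.8 against 707.6) and Pxmp2 (146.3 against 343.4). These were not close to Aqp7, at distances of 0.57 to 0.69 in log2 ratio, and none of the 278 was as low. For G0s2, among 456 such genes, the nearest ratios were those of Capg (399.7 against 188.3), Slc4a1 (264.6 against 119.8) and Slc3a2 (259.4 against 123.8). For Gpam, among 521, they were those of Psmb9 (91.5 against 168.4), Dcaf11 (87.9 against 167.6) and Dglucy (115.2 against 168.9).

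The upstream sequence of G0s2 is shown because it was the member with the higher reading and its window lies wholly before the gene. In the RefSeq promoter table of build GRCr8, 3 of the 6 genes had an entry: G0s2, Gpam and Lep. The windows of Gpam and Lep reach 201 and 9 bases into a longer transcript of the gene and are not printed. The 250 bases before the G0s2 start lie at chr13:107335949-107336198 on the minus strand and are 62.8% G and C. Capitals mark matches to the motifs searched.
G0s2: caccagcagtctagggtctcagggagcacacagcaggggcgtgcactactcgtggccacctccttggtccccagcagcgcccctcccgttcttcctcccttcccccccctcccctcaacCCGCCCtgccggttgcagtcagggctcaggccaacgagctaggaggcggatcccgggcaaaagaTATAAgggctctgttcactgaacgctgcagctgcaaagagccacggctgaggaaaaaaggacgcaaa
The motifs searched on both strands were TATAA for the TATA box, CCAAT for the box of that name, GGGCGG for the GC box, AGGTCA for the repeat unit of many nuclear receptor sites, and CACGTG for the E-box of clock factors. G0s2 held TATAA at 67 to 63 bases before the start and GGGCGG on the opposite strand at 131 to 126. Of all 33469 windows of this length, 24.0% held TATAA, 34.0% CCAAT, 30.5% GGGCGG, 14.1% AGGTCA and 5.59% CACGTG. No match to AGGTCA or CACGTG was found in the windows of G0s2, Gpam or Lep, which says only that these letters are not in these windows.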

How the data were processed

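Heart total RNA was made into biotin-labelled, fragmented cRNA and read on 1-colour arrays, per the labels' protocols. The authors deposited linear intensities, 1 for each probe set on each array. The software behind them is not given in the sources used here, and detection calls were not used here. Trimmed by 2%, the mean intensity of the arrays differed by 0.0031%, under the 10% limit set, so the deposited intensities were used without further scaling. The trimmed mean was 100.2 on both arrays. If the values were set to a common mean before deposit, this check could not fail and does not show that the arrays are comparable. Names came from a 2016 annotation of the platform: 7006 had 1 symbol, 308 several and 1426 none, and the latter were not used for naming. No member probe set had several symbols. A gene was represented by its probe set with the highest mean.

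The members, lists and settings were chosen with earlier results of these data known. The noise floor and the 2-fold rule are described with the results. With 1 array a group no test was run, and the number of arrays limits the precision. Named were all probe sets of the members, up to 6 genes a list by size of ratio among those at the floor, all adipocyte markers and the 3 genes nearest in ratio to Aqp7, G0s2 and Gpam; other genes under the floor, such as Gk, Mgll and Acsl3, were named after their values were seen. Alternatives were other floors, scalings, thresholds, probe set rules and list memberships. The ratio step was tested on simulated data made from the low-salt values. Changes were planted only in probe sets read far above the noise floor, with noise in proportion to the reading. The test therefore does not cover bounds that rest on noise near the floor, such as those of Aqp7, G0s2 and Gpam. Figures used matplotlib 3.10.9, and all values were computed with pandas 2.3.3, numpy 2.4.6, scipy 1.17.1 and statsmodels 0.14.6 in Python 3.11.15.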

Additional observations from a re-analysis of the deposited data

How the results depend on the processing

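Scaling by median, quantile, loess or heart muscle markers left every member ratio within the SD between probe sets of 1 gene. For Aqp7 and Gpam this says little. The median, loess and marker scalings changed the high-salt value alone, which stayed under the floor, so these ratios could not move. Floors moved the bounds. At the lower floor, the 40th percentile of all values (10.9), the log2 ratio was -3.10 for Aqp7, 4.28 for G0s2 and -3.95 for Gpam. At the 90th percentile noise floor (84.9) it was -2.49, 1.66 and -0.99. At the 99th (271.2) Aqp7 had -0.82, no longer past 2-fold, and G0s2 and Gpam had no value. Probe sets at least 2-fold higher and lower numbered 415 and 435 at the lower floor, and 40 and 10 at the 99th percentile floor, with 57 lower at the 90th. They numbered 171 and 176 at 1.5-fold and 21 and 4 at 3-fold. In the triglyceride and glycerol lists together, genes lower numbered 4 at the lower floor, 4 at 1.5-fold and 0 at the 99th percentile floor. Genes higher numbered 0 at the 99th percentile floor and at 3-fold, where G0s2 dropped out. Without the 6 members both counts were 0. Of the other results for single lists and all genes, 551 stayed within tolerance (counts within 1.5 times, medians within the SD of 0.22) and 79 moved further. The cause was not tested. Some of the 551 could not have moved, so that number does not measure robustness. A list with none past 2-fold also has none past 3-fold, and leaving out the 6 members does not change a list that holds none of them. No replicate could be left out, and readings under the noise floor set the limit of depth.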

Other observations

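Genes around the storage pathway were read in the same way. Rxrg, which encodes a retinoid X receptor that pairs with the PPAR factors, was the one gene of the nuclear factor list past 2-fold, with 210.9 under high salt and 458.0 under low salt (log2 ratio -1.12). Its other probe sets read 13.0 against 111.4 and -20.2 against 4.7, under the noise floor on both arrays, so they gave no reliable direction. The PPAR genes themselves stayed under the floor: Ppara read 36.5 and 41.8, Pparg 21.3 and 11.4, and Ppard 54.7 and 114.4 in its brightest probe set. Of 15 nuclear factor genes on the array 4 reached the floor, 3 of them lower, with a median log2 ratio of -0.40.

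Fatty acid synthesis genes were mostly dim, with 2 of 9 at the floor. Me1, which encodes the malic enzyme that supplies NADPH for fat synthesis, read 177.8 against 275.6 (log2 ratio -0.63), and a second probe set of the same record read 125.1 against 179.9. Elovl5, a fatty acid elongase gene, read 153.8 against 133.9. In the list of lipoprotein triglyceride supply, 5 of 8 genes reached the floor and none passed 2-fold. Apoe, which encodes a lipoprotein ligand made by macrophages and liver, read 929.2 against 545.7 (log2 ratio 0.77) and 187.9 against 162.5 in a second probe set, both higher in the high-salt heart.

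Some large negative readings were shared by both arrays: 88 probe sets were below minus the noise floor on both, among them D45862_at of Lep.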
